A study of Mus musculus with 4 samples.

Results

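The Meis, Pbx and Cdx homeobox genes were taken from the expression table by their symbols: Meis1, Meis2, Meis3, Pbx2, Pbx3, Pbx4, Cdx1, Cdx2 and Cdx4, which are 9 of 24771 listed features. Each symbol matched 1 Ensembl gene. The genes were compared between PSC-derived SG placodes on day 10 (2 samples) and SMGs of E12.5 mouse embryos (2 samples), called here placodes 1 and 2 and SMGs 1 and 2. The placodes were grown from a mouse line of embryonic stem cells, plated as 3000 cells in each well, with 2% Matrigel in the medium from day 1, 2 ng/ml BMP4 on day 3, 1 μM RA and 25 ng/ml bFGF on day 4 and 200 ng/ml FGF10 from day 6. The labels call the placodes induced embryonic salivary glands. The SMGs were labelled as untreated, with neither strain nor dissection given. The placodes come from 1 cell line, and the labels do not say whether the samples of a group were separate cultures or litters, so p-values measure the spread between these samples, which may be technical.
Meis and Pbx proteins belong to the TALE class of homeodomain proteins, named for a loop of extra amino acids in the homeodomain. They bind DNA together with Hox proteins, and Meis proteins also help to carry Pbx proteins into the nucleus. Cdx proteins, relatives of Drosophila caudal, switch on Hox genes of the trunk in the posterior embryo, and Cdx1 and Cdx2 later specify the intestinal epithelium. Meis and Pbx genes are widely expressed in the embryonic hindbrain, spinal cord and mesenchyme. RA is known to raise Meis and anterior Hox genes, while Wnt, FGF and RA signals act on Cdx genes in the tail bud.

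Expression was given as FPKM, the mapped fragments of a gene scaled to the length of the transcript and the number of mapped fragments, so levels can be compared between genes. The FPKM values of a sample summed to between 361963 and 384773, and the read depth is unknown. For the comparison, log2(FPKM + 1) was tested with limma over the 13193 features with a mean FPKM of at least 1, two-sided and with Benjamini-Hochberg adjustment. A gene at a low level in one group could pass this filter only through the group where it was high, so the counts over lists that hold such genes are descriptions. Of these features, 76.2% passed an adjusted p of 0.05, with 35.7% higher and 40.4% lower in the placodes. Differences of at least 2-fold past that threshold were found for 14.1% as higher and for 15.2% as lower. With 2 samples in each group, the lowest p-value of an exact permutation test is 0.3333. The tissue labels were checked against markers. All 8 salivary epithelium markers were lower in the placodes, with Krt5, Krt14 and Krt15 listed at 0 in both placodes. Krt5, Krt14, Krt15, Pitx1 and Trp63 had a mean FPKM below 1 in the placodes and passed the filter only through the SMGs. The log2 fold changes of all 8 markers ran from -7.40 for Pitx1 to -2.76 for Sox10. Their summed FPKM was 5.43 to 5.90 in the placodes and 570 to 588 in the SMGs. In bulk RNA, fewer cells of a type and less RNA per cell cannot be told apart.

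Of the 9 genes, 6 passed the filter on low values: all 3 Meis genes, Pbx2, Pbx3 and Pbx4. Meis1, Meis2, Meis3, Pbx3 and Pbx4 were higher in the placodes, Pbx2 did not pass the test, and no gene was lower. The 5 of 6 called as higher stand beside the 35.7% of all tested features, and the 4 that were also at least 2-fold higher beside 14.1%. Groups without overlap were found for 5 of the 6 genes, all higher in the placodes, and over all tested features this share was 88.4%, with 41.6% higher and 46.8% lower. The median log2 fold change of the 6 genes was 1.67, against -0.05 over all tested features. The 3 Cdx genes stayed below an FPKM of 1 in every sample and were not tested.

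**Figure D1:**
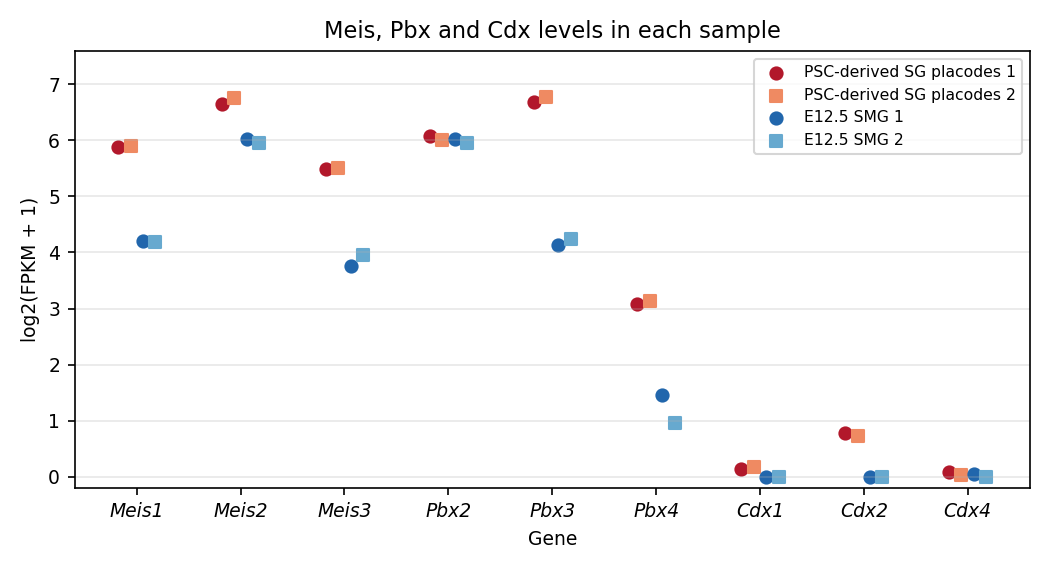
Level of each gene as log2(FPKM + 1) on the y axis, with 1 point per sample, red for PSC-derived SG placodes and blue for E12.5 SMGs, and circles and squares for samples 1 and 2. The red points lie above the blue points for Meis1, Meis2, Meis3, Pbx3 and Pbx4, the colours mix for Pbx2, and the Cdx genes lie near 0.

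To show the genomic context of genes that differed and of genes that did not, the sequence ahead of the start site is given for Meis1 and Pbx4, which were higher in the placodes, for Pbx2, which was not called, and for Cdx2, the Cdx gene with the highest level. RefSeq start windows of GRCm38.p6 were found for 7 of the 9 genes, and none for Pbx3 and Cdx1. Only bases before the start site and outside annotated exons are printed, 5′ to 3′ on the strand of the gene, and capitals mark CG dinucleotides.
Meis1, chr11:19018986-19019219, minus strand: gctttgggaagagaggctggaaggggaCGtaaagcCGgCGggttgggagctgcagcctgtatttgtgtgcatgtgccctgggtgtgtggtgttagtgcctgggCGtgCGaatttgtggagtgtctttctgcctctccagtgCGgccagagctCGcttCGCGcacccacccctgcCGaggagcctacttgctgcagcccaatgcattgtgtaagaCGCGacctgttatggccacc
Pbx4, chr8:69832374-69832490, plus strand: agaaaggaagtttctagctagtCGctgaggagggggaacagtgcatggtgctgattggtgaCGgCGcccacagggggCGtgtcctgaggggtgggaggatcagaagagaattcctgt
Pbx2, chr17:34592009-34592258, plus strand: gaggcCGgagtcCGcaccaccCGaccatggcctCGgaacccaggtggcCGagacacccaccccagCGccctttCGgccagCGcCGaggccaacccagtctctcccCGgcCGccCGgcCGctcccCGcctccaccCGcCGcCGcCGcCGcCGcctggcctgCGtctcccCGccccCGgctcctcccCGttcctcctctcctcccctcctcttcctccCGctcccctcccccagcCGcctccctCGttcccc
Cdx2, chr5:147307271-147307499, minus strand: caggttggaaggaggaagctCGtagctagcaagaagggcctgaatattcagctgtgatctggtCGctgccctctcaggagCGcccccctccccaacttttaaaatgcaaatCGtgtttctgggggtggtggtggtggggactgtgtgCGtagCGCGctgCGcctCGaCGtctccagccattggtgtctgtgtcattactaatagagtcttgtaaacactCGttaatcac
The Pbx2 window lies within the annotated span of the gene, ahead of a start site inside it. It was the richest in CG dinucleotides of the 7, with 27 in the full 250 bases and a GC content of 77.6%, at percentile 97.9 of 32851 windows. The windows of Meis1 and Cdx2 held 13 each, those of Meis3 and Pbx4 held 12, that of Meis2 held 7 and that of Cdx4 held 5, with a median of 6 over all windows. GC content was 59.6% for Meis1, 55.6% for Pbx4 and 55.2% for Cdx2. The windows were searched on both strands for TGACAG, the core bound by Meis, which 15.9% of all windows hold, and for TGATNNAT, a core bound by Pbx with Hox, which 7.68% hold. TTTATG, a core bound by Cdx, was found in 10.8% of all windows, and AGGTCA, a site of RA receptors, in 14.0%. The direct repeat of that site with a gap of 5 bases, which thus contains AGGTCA, was found in 0.00913%. None of these letters occurred in the 250 bases of the 7 windows.

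Meis1 (ENSMUSG00000020160, chromosome 11 of GRCm38 from 18879817 to 19018985, minus strand) is a Hox cofactor known from hindbrain patterning and from blood stem cells. Its FPKM was 57.9 and 58.9 in placodes 1 and 2 and 17.5 and 17.1 in SMGs 1 and 2. Both placodes were above both SMGs, and the samples of a group were close to each other. The log2 fold change was 1.70 (standard error 0.05, adjusted p = 9.17e-07). Of the 10532 exonic bases of Meis1, 1925 are shared with the annotated genes Gm16140, on the opposite strand, and Gm37818, and the counting of strands is not given in the sources used here.
Meis2 (ENSMUSG00000027210, chromosome 2 from 115863064 to 116065839, minus strand), which acts in the forebrain, the limb and the craniofacial neural crest, was the most abundant Meis gene in both groups. Its FPKM was 99.6 and 107.7 in placodes 1 and 2 and 64.2 and 61.1 in SMGs 1 and 2. The groups did not overlap, but the log2 fold change was 0.72 and so stayed below 2-fold (standard error 0.06, adjusted p = 6.45e-05). The 95% interval of Meis2, 0.57 to 0.86, lay below that of Meis1, 1.58 to 1.82.
Meis3 (ENSMUSG00000041420, chromosome 7 from 16175090 to 16186504, plus strand) is known for its part in hindbrain formation. Its FPKM was 44.1 and 44.6 in placodes 1 and 2 and 12.504 and 14.568 in SMGs 1 and 2. Both placodes were again above both SMGs. The log2 fold change was 1.65 (standard error 0.08, adjusted p = 6.41e-06), with an interval of 1.46 to 1.84 that overlapped that of Meis1.

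Pbx3 (ENSMUSG00000038718, chromosome 2 from 34171457 to 34373142, minus strand), a Hox cofactor with roles in hindbrain neurons and dorsal spinal cord, had the largest log2 fold change of the 6 tested genes. Its FPKM was 102.4 and 109 in placodes 1 and 2 and 16.6 and 17.8 in SMGs 1 and 2. The lowest placode value was thus far above the highest SMG value. The log2 fold change was 2.55 (standard error 0.06, adjusted p = 4.70e-07), at percentile 96.2 of all tested features.
Pbx4 (ENSMUSG00000031860, chromosome 8 from 69832491 to 69872292, plus strand), best known from the testis, had the lowest level of the Pbx genes analysed. Its FPKM was 7.44 and 7.81 in placodes 1 and 2 and 1.73 and 0.951 in SMGs 1 and 2. The groups did not overlap, and the SMG samples were the further apart of the pairs in relative terms. The log2 fold change was 1.90 (standard error 0.17, adjusted p = 9.72e-05), with the widest interval of the 6 tested genes, 1.49 to 2.31. The ratio of the mean FPKM values was 5.69, a larger difference than on the log2(FPKM + 1) scale, since the added 1 weighs on low values.
Pbx2 (ENSMUSG00000034673, chromosome 17 from 34591266 to 34597400, plus strand), a broadly expressed Pbx gene, was at 66.4 and 63.1 in placodes 1 and 2 and at 64.5 and 60.8 in SMGs 1 and 2. The values of the groups overlapped. The log2 fold change was 0.05 (standard error 0.05, adjusted p = 0.453), with a 95% interval of -0.09 to 0.18, so a difference of 2-fold lies outside it. Quantile normalization turned its direction, to -0.026. Gpsm3 shares 227 of the 3640 exonic bases of Pbx2, and its FPKM was 0.318 and 0.396 in placodes 1 and 2 against 3.18 and 3.08 in SMGs 1 and 2.

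The order of levels also differed between the groups. In the placodes, Pbx3 and Meis2 had the highest levels and overlapped each other, followed by Pbx2, Meis1, Meis3 and Pbx4, whose values did not overlap from one to the next. In the SMGs, Meis2 and Pbx2 had the highest levels and overlapped each other. Meis1 and Pbx3 followed, again overlapping, and then Meis3 and Pbx4. Pbx3 was at percentile 98.1 of all features by level in the placodes and at percentile 81.5 in the SMGs, whereas Pbx2 was at percentile 96.2 and 96.3.
The summed FPKM of Meis1, Meis2 and Meis3 was 202 and 211 in placodes 1 and 2 and 94.2 and 92.8 in SMGs 1 and 2. For Pbx2, Pbx3 and Pbx4 it was 176 and 180.1 in placodes 1 and 2 and 82.8 and 79.5 in SMGs 1 and 2. Both sums were thus higher in the placodes, by ratios of the means of 2.21 and 2.19. Meis2 held 49.4% and 51.0% of the Meis sum in the placodes, against 68.2% and 65.8% in the SMGs. Within the Pbx sum, Pbx3 held 58.1% and 60.6% in the placodes, against 20.0% and 22.4%, and Pbx2 held 37.7% and 35.1%, against 77.9% and 76.4%. These shares did not overlap between the groups, at the smallest p-value the exact permutation test allows (two-sided p = 0.3333). A single gene thus made up most of each sum in the SMGs, and in the placodes Pbx3 took that place from Pbx2.

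**Figure D2:**
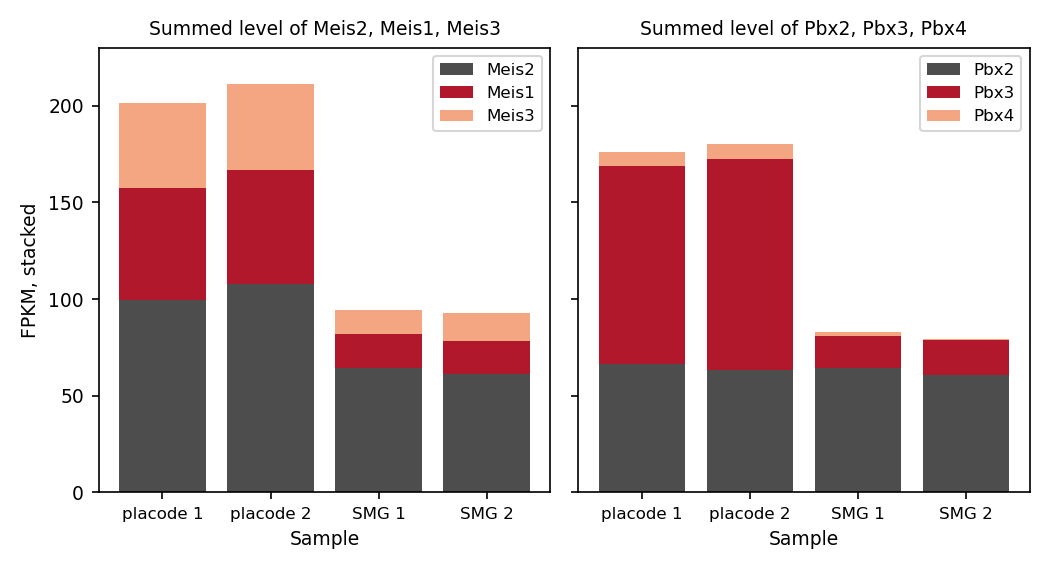
Stacked FPKM of Meis2, Meis1 and Meis3 (left) and of Pbx2, Pbx3 and Pbx4 (right) on the y axis, with 1 bar per sample on the x axis. The dark segments of Pbx2 are of like height in all 4 samples, while the Pbx3 segments are at 102.4 and 109 in the placodes and at 16.6 and 17.8 in the SMGs.

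Reads shared between paralogues could move values from one gene to another. No stretch of 50 bases in the annotated transcripts of a Meis, Pbx or Cdx gene occurred in those of another of the 9 genes. Stretches shared with any other gene made up 17.0% of those of Meis1 and 4.93% of those of Pbx2, nearly all from the overlapping genes named above, 0.19% of those of Meis2 and none of the other 6 genes.

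Cdx2 (ENSMUSG00000029646, chromosome 5 from 147300805 to 147307270, minus strand), a regulator of trunk Hox genes, trophoblast and intestine, had an FPKM of 0.718 and 0.656 in placodes 1 and 2 and was listed at 0 in both SMGs. Cdx1 (ENSMUSG00000024619), which acts in vertebral patterning and the intestine, was at 0.0950 and 0.133 in placodes 1 and 2 and was also listed at 0 in both SMGs. Cdx4 (ENSMUSG00000031326, chromosome X from 103321398 to 103330592, plus strand), a gene of the posterior embryo, was at 0.0628 and 0.0213 in placodes 1 and 2 and at 0.0320 and 0 in SMGs 1 and 2. The placode values of Cdx1 and Cdx2 were thus above 0 in both samples, while those of Cdx4 lay on either side of an SMG value. Without the filter on mean FPKM, limma called Cdx2 (adjusted p = 9.54e-04), but neither Cdx1 (adjusted p = 0.0597) nor Cdx4 (adjusted p = 0.595). Since the depth is unknown, a value of 0 does not show that a gene was silent.
Of 8 genes of signals that act on Cdx in the tail bud, 4 were tested. Of these, 2 were higher and 1 was lower in the placodes, beside 35.7% and 40.4% of all tested features. Rara, an RA receptor gene, had an FPKM of 39.3 and 39.6 in placodes 1 and 2 and 21.1 and 22.4 in SMGs 1 and 2, a log2 fold change of 0.83 (adjusted p = 2.51e-05). Rarg, the RA receptor gene of the tail bud, was lower, at 6.06 and 4.48 against 46.8 and 46.7 (log2 fold change -2.94, adjusted p = 3.42e-06). Under TPM and under median-ratio scaling, 3 of the 4 tested genes were called as higher in place of 2. The ligand genes Wnt3a, Fgf8 and Fgf4 were listed at 0 in both placodes and were also low in SMGs 1 and 2. There Wnt3a was at 0.120 and 0.0379, Fgf8 at 0.0539 and 0, and Fgf4 at 0.155 and 0.0124. The ligand gene Wnt8a was at 0.301 and 0.0514 in the placodes and listed at 0 in both SMGs.
Of 8 genes known as targets of Cdx, 7 were tested. Of these, 6 were higher and 1 was lower in the placodes, beside 35.7% and 40.4% of all tested features. Of the 6, Hoxa5, Hoxa7, Hoxb8 and Pax3 had a mean FPKM below 1 in the SMGs and passed the filter only through the placodes, which fixes their direction. Hoxb8 had an FPKM of 258 and 270.3 in placodes 1 and 2 and was listed at 0 in both SMGs. Hoxa5, at 125 and 124, and Hoxc8, at 0.344 and 0.0702, were also listed at 0 in the SMGs. The lowest of the list was Cyp26a1, which encodes an enzyme that breaks down RA, at 1.21 and 1.21 in placodes 1 and 2 and 3.59 and 4.39 in SMGs 1 and 2 (log2 fold change -1.17, adjusted p = 1.88e-04).

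Of 11 other TALE homeobox genes, 9 were tested, with 7 higher and 1 lower in the placodes. Over all tested features, 35.7% were higher and 40.4% lower. The median log2 fold change was 1.90 over the 8 tested genes that were not listed at 0 in a group, against -0.05 over all features. Irx3, an Iroquois gene of the neural tube, had the highest log2 fold change, 4.72 (standard error 0.06, adjusted p = 1.36e-07). Its FPKM was 65.5 and 66.9 in placodes 1 and 2 and 1.54 and 1.56 in SMGs 1 and 2. Tgif1, a repressor of TGF-beta and RA signaling, was the gene that was lower, at 18.7 and 18.8 against 23.9 and 22.6 (log2 fold change -0.29, adjusted p = 3.71e-03). Irx4 was at 2.91 and 2.34 in placodes 1 and 2 and was listed at 0 in both SMGs. Irx4 thus passed the filter only through the placodes, which fixes its direction.
The Pknox genes encode the TALE proteins closest to Meis, and their values were looked at after those of the list had been seen. Pknox1 had an FPKM of 11.1 and 10.8 in placodes 1 and 2 and 9.15 and 10.4 in SMGs 1 and 2, with a log2 fold change of 0.15 (adjusted p = 0.138). Pknox2 was higher in the placodes, at 12.7 and 14.6 against 2.24 and 1.43 (log2 fold change 2.38, adjusted p = 2.49e-05). As with Pbx2 and Pbx3, one paralogue passed the test and the other did not.

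**Figure D3:**
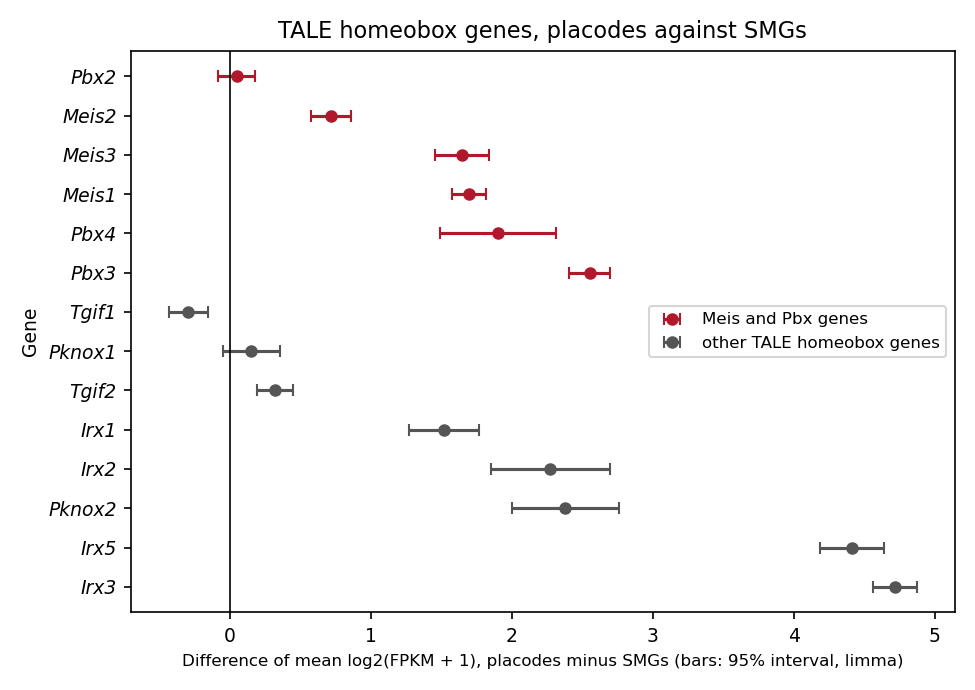
Log2 fold change of each tested TALE homeobox gene on the x axis, placodes minus SMGs, with 95% intervals from limma as bars, red for Meis and Pbx genes and grey for other TALE genes. The intervals of Pbx2 and Pknox1 include 0, those of Pbx3, Irx3 and Irx5 lie far to its right, and Irx4 is left out because it was listed at 0 in the SMGs.

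Hox genes, whose proteins bind DNA with Meis and Pbx, are given here mainly as sums beside their cofactors, with values of a few named genes. The summed FPKM of 12 Hox genes of paralogue groups 1 to 4 was 592 and 598 in placodes 1 and 2 and 4.88 and 4.48 in SMGs 1 and 2. For the 11 genes of groups 5 to 8 the sums were 894 and 907 against 0.809 and 0.637, and for the 16 genes of groups 9 to 13 they were 92.3 and 84.3 against 0.138 and 0.0490. Hoxb9, at 91.8 and 83.7, made up nearly all of the last placode sums. In the SMGs, the Meis and Pbx sums were thus above the Hox sums, and in the placodes they were below those of groups 1 to 4 and 5 to 8. All 22 tested Hox features of the 3 lists were higher in the placodes, beside 35.7% of all tested features. However, all except Hoxa2 and Hoxb2 had a mean FPKM below 1 in the SMGs. Those features passed the filter on low values only through the placodes.
Of 10 genes regulated by Pbx and Meis with Hox in the hindbrain and other tissues, listed as 11 features since Hoxd4 has 2, 9 features were tested, with 7 higher and 2 lower in the placodes. Of the 7, 6 are Hox genes that are also counted above, and all except Hoxa2 and Hoxb2 had a mean FPKM below 1 in the SMGs. Hoxb3 had the highest log2 fold change, 6.40 (standard error 0.09, adjusted p = 1.36e-07), with an FPKM of 115 and 119 in placodes 1 and 2 and 0.491 and 0.297 in SMGs 1 and 2. Aldh1a2, which encodes the main enzyme that makes RA in the embryo, had the lowest, -3.95 (standard error 0.10, adjusted p = 6.71e-07), at 3.61 and 2.88 in placodes 1 and 2 and 60.8 and 68.5 in SMGs 1 and 2. Hoxb1 was at 1.86 and 1.38 in placodes 1 and 2 and listed at 0 in the SMGs.

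Markers of several cell types also differed between the groups, and their part in the differences of the Meis and Pbx genes was not tested. All 7 neural progenitor markers and all 9 neuronal markers were higher in the placodes, beside 35.7% of all tested features. Sox1, Sox3, Pax6 and Hes5 had a mean FPKM below 1 in the SMGs. They passed the filter only through the placodes, which fixes their direction. The summed FPKM of the neural progenitor and neuronal markers was 771 to 801 and 1352 to 1369 in the placodes, against 45.7 to 51.1 and 112 to 124 in the SMGs. All 8 mesenchyme markers were lower in the placodes, with sums of 165 to 169 against 1384 to 1401. So were all 6 endothelial markers, with sums of 9.45 to 10.1 against 127 to 132, beside 40.4% of all tested features. Fgf10, Kdr, Pecam1, Tie1, Emcn and Cldn5 had a mean FPKM below 1 in the placodes and passed only through the SMGs. No marker of these 4 lists was listed at 0 in both samples of a group. The log2 fold changes of the neural progenitor markers ran from 1.03 for Nes to 6.80 for Hes5, and those of the neuronal markers from 2.92 for Dcx to 4.11 for Snap25. Those of the mesenchyme markers ran from -5.19 for Fgf10 to -1.51 for Twist1, and those of the endothelial markers from -4.10 for Tie1 to -1.93 for Cdh5.
Tissues that express Cdx genes were also looked at. Of 9 axial progenitor markers, the genes of the cells that lengthen the trunk, 3 were tested. Of these, 1 was higher and 1 was lower in the placodes, beside 35.7% and 40.4% of all tested features. The higher one was Evx1, which also marks spinal interneurons, at 8.65 and 9.33 in placodes 1 and 2 and listed at 0 in the SMGs. Evx1 thus passed the filter only through the placodes. T was at 0.0268 and 0 in placodes 1 and 2, against 0.500 and 0.324 in SMGs 1 and 2. Nkx1-2, at 0.275 and 0.0801 in the placodes, was listed at 0 in both SMGs, as was Wnt8a. Wnt3a and Fgf8 were listed at 0 in both placodes, beside the low SMG values given above. Of 8 intestinal markers none reached the mean FPKM for testing, and Isx, Sis and Fabp2 were listed at 0 in all 4 samples. Their sum was 0.965 to 1.07 in the placodes and 1.87 to 2.37 in the SMGs. Of 7 trophoblast markers, 5 were tested, with 2 higher and 1 lower, beside 35.7% and 40.4% of all tested features. The 2 were Hand1 (log2 fold change 1.80, adjusted p = 3.04e-04) and Krt7 (log2 fold change 1.00, adjusted p = 1.24e-03), which other tissues express as well. Both had a mean FPKM below 1 in the SMGs and passed the filter only through the placodes. Elf5, a defining gene of trophoblast that salivary epithelium also expresses, was lower, at 0.330 and 0.190 against 4.34 and 3.59. It passed the filter only through the SMGs. Eomes was below 0.05 in every sample. Ascl2, another trophoblast gene, was not tested and was at 1.25 and 1.11 in placodes 1 and 2, against 0.152 and 0.129 in SMGs 1 and 2.

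**Figure D4:**
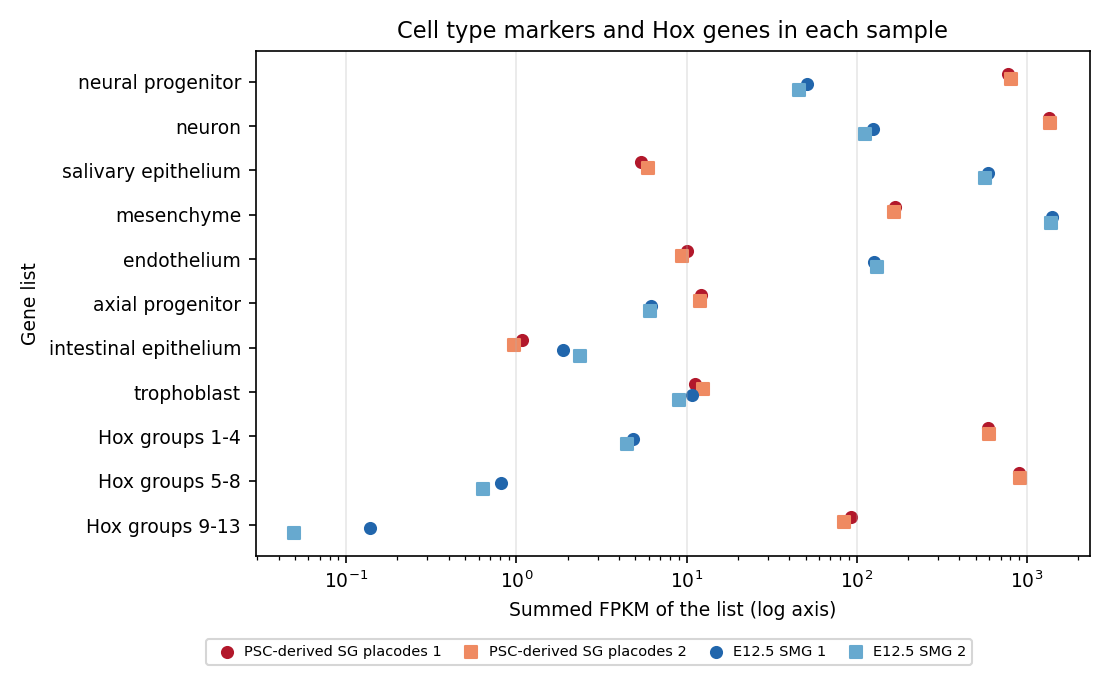
Summed FPKM of each list of cell type markers and of Hox genes on the x axis, which is a log axis, with 1 point per sample, red for PSC-derived SG placodes and blue for E12.5 SMGs. The neural and Hox sums are higher in the placodes, the salivary, mesenchyme and endothelial sums are lower, and the trophoblast sums, 11.1 and 12.52 against 10.8 and 9.05, lie close together.

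For each tested gene, the 2 genes with the most similar pattern were found by the Euclidean distance of log2(FPKM + 1) over the 4 samples. With 2 groups of 2 samples, such a distance mainly reflects the level in each group. The nearest to Meis1 were Cnih2 (distance 0.13) and Ncam1 (0.17), both of which are expressed in neurons. Acat2 and Dync1i2 were nearest to Meis2 (0.12 each), and Xpr1 (0.11) and Ephb2 (0.24) to Meis3. Nkain1 (0.17) and Tspan13 (0.21) were nearest to Pbx3, and Mtm1 (0.25) and Sh3gl2 (0.27) to Pbx4. Pbx2 was nearest to Tcea1 (0.06), a transcription elongation factor gene with an FPKM of 64.0 and 62.5 in placodes 1 and 2 and 63.3 and 60.8 in SMGs 1 and 2, and to Cope (0.10). No Meis, Pbx or Cdx gene was among the candidates.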

How the data were processed

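Total RNA of 2 samples of PSC-derived SG placodes and 2 samples of E12.5 SMGs was sequenced as paired-end reads. The authors used HISAT2 to map the reads, and the deposited values of each gene are in FPKM. The submitters' processing notes name GRCm38 and GRCh38 with no role. The version of HISAT2, the annotation, the use of strand and the program for FPKM are not given in the sources used here. Depth is unknown, so no interval or floor of counting error could be computed.

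Samples were grouped by their labels. Features with a mean FPKM of at least 1 were tested as log2(FPKM + 1) with limma 3.58.1 in R 4.3.3 (lmFit, eBayes with trend, group as the only term, Benjamini-Hochberg over 13193 features). Fold changes are differences on that scale and understate those of low genes. Positions and exons were taken from GENCODE M21 (GRCm38), and start windows from RefSeq (GRCm38.p6). The procedure was run on simulated data, with independent noise of the spread between samples of a group and few features changed 2-fold. Such a run cannot show whether the samples here are technical replicates. The genes and lists were chosen with earlier results of these data known. The genes named are the 9 genes, the highest and lowest tested gene of each list, markers listed at 0 in a group, and the 2 nearest genes by pattern. Other genes named were chosen after their values were seen, namely the Pknox genes, Irx5, T, Krt7, Eomes and Ascl2. The same holds for the genes that overlap Meis1 and Pbx2 and for genes named for a low level in the SMGs or placodes. The alternatives were other pseudocounts, scalings, filters, detection levels, a replicate block, eBayes without trend, and leaving out each sample. Protein sequences were not used here. A list of Pbx-dependent genes was also computed and is not reported here.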

Additional observations from a re-analysis of the deposited data

How the results depend on the processing

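Meis1, Meis2, Meis3 and Pbx3 were higher in the placodes at an adjusted p below 0.05 under all 13 alternatives, and Pbx4 under the 12 that tested it, since its mean FPKM was below 5. The log2 fold changes ranged from 1.66 to 1.76 for Meis1, from 0.65 to 0.78 for Meis2, from 1.54 to 1.75 for Meis3 and from 2.51 to 2.62 for Pbx3. For Pbx4 they ranged from 1.66 to 2.56, with adjusted p-values of up to 0.0128. Pbx2 passed under none of 13, with adjusted p-values from 0.0935 to 0.929, and quantile normalization gave -0.026 in place of 0.05 (the cause was not tested). The number of genes called was 4 to 6. It was lowest at a minimum mean FPKM of 5, where Pbx4 was not tested and 7460 of all 9679 tested features were called. It was highest with no minimum, where Cdx2 was added and 11894 of all 20464 tested features were called. Without 1 sample it was 5 each time, with the lone sample of the group assumed to vary like the other group. With the replicate number as a block, 5 genes were called and 4 were at least 2-fold apart, as without it, and the block changed the call of none of the 6 tested genes. The lists of other genes were counted again only under TPM and median-ratio scaling. Deviations of samples with the same number had a correlation of -0.035 over the tested features. This shows no strong shared shift by number, but with 2 samples in each group it cannot exclude that samples were paired. In both samples of a group, 6 genes reached an FPKM of 1 in the placodes and 5 in the SMGs, against 7 and 6 at 0.1 and 6 and 5 at 5.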
